A study of Mus musculus with 39 samples.

Results

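The genes described here encode the nuclear subunits of respiratory complexes III, IV and V. They were taken as the gene symbols beginning with Uqcr, with Cox followed by a digit of the subunit series, or with Atp5, without pseudogenes, that averaged at least 1 TPM (an abundance of transcripts, corrected for their length and scaled to a fixed total) in sorted CD8 T cells or in tumour libraries. Of 28023 symbols in each table, 48 matched, 6 of them were pseudogenes and 4 stayed under the minimum, which left 38 genes: 8 of complex III, 15 of complex IV and 15 of complex V. Atp5g2, Cox8b and Cox8c were listed at 0 in every library, and Cox4i2, the lung isoform of subunit 4, averaged 0.339 TPM in the CD8 set and 0.124 TPM in the tumour set. Cox7b2 passed the minimum through the tumour set alone and was not tested in the CD8 set, where 37 of the 38 genes were tested.

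Complex III passes electrons from ubiquinol to cytochrome c, complex IV passes them from cytochrome c to oxygen, and both pump protons across the inner mitochondrial membrane. Complex V, the ATP synthase, lets the protons back through a membrane ring and couples that flow to the making of ATP. The catalytic core of complex IV, cytochrome b of complex III and a pair of subunits of complex V are encoded in mitochondrial DNA, and the genes described here supply most of the nuclear-encoded subunits. In T cells oxidative phosphorylation is known to serve memory cells and long-lived responses, and activated cells also draw on glycolysis.

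The study gave wild-type C57BL/6 mice, an inbred laboratory strain, a transfer of faecal microbiota (FMT) from stools of human volunteers that had been exposed for 6 days to CZA with DAV132, a colon-acting adsorbent, or to CZA alone, an abbreviation that the labels do not spell out. After 2 weeks MCA-205 cells, a fibrosarcoma line of the same strain, were placed under the skin, and once tumours measured 25 to 35 mm2 the mice were injected 4 times at intervals of 3 days with anti-PD-1 (clone RMP1-14) or its isotype control (clone 2A3), 250 µg each time, with sacrifice 2 days later. All mice thus had an FMT, a tumour and an injected antibody, and there were 4 groups: CZA+DAV132 with anti-PD-1, CZA+DAV132 with isotype, CZA with anti-PD-1, and CZA with isotype. CD8 T cells sorted from tumours gave 5 libraries in each group, 20 in all, from a repeat of the experiment, and the first experiment gave 19 libraries labelled bulk tumour, 5 in each group but 4 for CZA+DAV132 with isotype. The libraries are not tied to single mice in the labels, and the spread that the p-values rest on may be technical. The arms differ in the stool that was transferred, and in the tumour set also in the library numbering (T021 to T030 with DAV132, T982 to T991 without), so that in the tumour set an effect of the arm cannot be told apart from anything that goes with the numbering.

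TPM keep no record of sequencing depth, which is therefore unknown for each library. T cell transcripts (Cd3d, Cd3e, Cd3g, Cd8a, Cd8b1, Trac, Trbc2 and Lck) spanned sums of 3560.5 to 15217 TPM in the CD8 set, whereas the bulk-labelled libraries had 4022 to 13202 TPM. The 7 fibroblast and fibrosarcoma markers summed to 361 to 1677 TPM in the bulk-labelled libraries, against 124 to 566 TPM in the CD8 set, much of it Thy1, which T cells also express. Of these, the collagen Col1a1 had a median of 13.0 TPM (4.73 to 431) in the bulk-labelled libraries, against 3.39 TPM (1.11 to 52.1) in the CD8 set, and Sparc had 13.7 TPM (0.26 to 445), against 16.1 TPM (0.817 to 148). Pdgfrb was at 0 in 15 of 19 bulk-labelled libraries and Lum in 18. The T cell sums of the sets thus overlapped widely, and the bulk-labelled libraries are called tumour-labelled below. A second fact touches every result: 11 entries made of satellite or simple repeats, each of which reached 5000 TPM, took very different shares of the libraries. They took 69.3% of the TPM in CD8 library 19 and 29.1% in CD8 library 16, both of CZA+DAV132 with anti-PD-1, and 48.9% in tumour-labelled library T026 and 13.3% in T985. TPM of other genes go down where these entries go up. For each comparison the count of genes called and their median change are therefore given with these libraries and without them. Counts of groups without overlap and the lists of other genes are given with all libraries only. Of the 38 genes 13 share over 10% of their 31-base words with other entries, mostly processed pseudogenes (from 10.1% in Atp5c1 to 32.4% in Uqcrb, and 22.3% in Atp5o, of which 11.3% with the gene Donson), and their values are uncertain to that extent. In RNA from many cells, fewer cells of a type and less RNA per cell cannot be told apart.

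The promoters of the genes are shown first. Complexes III to V are known for promoters that bind nuclear respiratory factor 1 and ETS-family factors such as GABP (nuclear respiratory factor 2). RefSeq windows from 250 bases before to 50 bases after the start, on build GRCm38.p6, were found for 29 of the 38 genes. An exact match to GCATGCG, letters of the nuclear respiratory factor 1 motif, on either strand, stood in 6 of 29 genes (20.7%), against 4.01% of 27025 genes with windows of the same length. An exact match to CCGGAAG, an ETS motif, stood in 10 of 29 (34.5%), against 9.93%. AAGATGG, a YY1 motif, stood in 3 of 29 (10.3%), against 7.28%, and TATAAA in 2 of 29 (6.9%), against 15.7%. The windows held a median of 18 CpG sites, against 7 over 32851 windows. The motif letters overlap themselves: where the first one is preceded by a C it reads the same on both strands and is found 2 times, and no other motif shares bases with it in the windows below.

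The 6 windows below are shown because Uqcrc1 and Cox5a led the falls of their complexes, given next, and the others hold matches. The 6 thus do not stand for all the genes. Atp5g1, which led the fall of complex V (log2 change -1.42), has a window that holds none of the 4 motifs and is not shown. Matched bases are in capitals. Those of Uqcrc1 (chr9:108936398-108936697, plus strand), Uqcr11 (chr10:80406772-80407071, minus strand), Cox6a1 (chr5:115348909-115349208, minus strand) and Atp5k (chr5:108434350-108434649, minus strand) hold the first motif, the last 3 of them with an ETS match as well. Cox8a (chr19:7217567-7217866, minus strand) holds 2 ETS matches, and Cox5a (chr9:57520982-57521281, plus strand), the gene with the greatest fall, holds none of the 4 motifs.
Uqcrc1: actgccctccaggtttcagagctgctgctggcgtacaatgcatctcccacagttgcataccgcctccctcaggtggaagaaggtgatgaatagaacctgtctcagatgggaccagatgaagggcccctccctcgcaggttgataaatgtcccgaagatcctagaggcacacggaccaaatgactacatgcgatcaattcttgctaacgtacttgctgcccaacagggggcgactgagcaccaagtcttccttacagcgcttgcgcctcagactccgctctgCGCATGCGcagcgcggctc
Uqcr11: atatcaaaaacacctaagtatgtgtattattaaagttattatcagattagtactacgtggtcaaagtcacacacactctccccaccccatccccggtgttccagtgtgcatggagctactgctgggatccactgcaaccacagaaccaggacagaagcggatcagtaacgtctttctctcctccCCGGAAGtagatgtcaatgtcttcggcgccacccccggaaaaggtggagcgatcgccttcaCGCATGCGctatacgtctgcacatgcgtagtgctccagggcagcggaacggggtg
Cox5a: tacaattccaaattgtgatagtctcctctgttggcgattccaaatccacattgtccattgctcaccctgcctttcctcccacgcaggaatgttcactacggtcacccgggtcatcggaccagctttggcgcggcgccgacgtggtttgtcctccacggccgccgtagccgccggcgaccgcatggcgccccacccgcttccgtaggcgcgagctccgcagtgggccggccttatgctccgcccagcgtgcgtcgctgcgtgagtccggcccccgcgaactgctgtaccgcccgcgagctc
Cox6a1: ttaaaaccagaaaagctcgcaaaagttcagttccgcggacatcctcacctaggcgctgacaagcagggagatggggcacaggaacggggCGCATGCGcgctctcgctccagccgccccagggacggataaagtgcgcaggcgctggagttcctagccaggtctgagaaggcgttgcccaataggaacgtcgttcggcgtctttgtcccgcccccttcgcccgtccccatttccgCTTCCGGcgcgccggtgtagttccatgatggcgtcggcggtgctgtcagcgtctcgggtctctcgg
Cox8a: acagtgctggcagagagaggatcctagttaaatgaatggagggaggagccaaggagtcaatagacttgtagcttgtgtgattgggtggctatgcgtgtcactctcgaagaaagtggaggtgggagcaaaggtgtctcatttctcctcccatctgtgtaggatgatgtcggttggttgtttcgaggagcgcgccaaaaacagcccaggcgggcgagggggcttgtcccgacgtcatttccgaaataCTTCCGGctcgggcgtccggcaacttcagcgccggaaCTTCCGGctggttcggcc
Atp5k: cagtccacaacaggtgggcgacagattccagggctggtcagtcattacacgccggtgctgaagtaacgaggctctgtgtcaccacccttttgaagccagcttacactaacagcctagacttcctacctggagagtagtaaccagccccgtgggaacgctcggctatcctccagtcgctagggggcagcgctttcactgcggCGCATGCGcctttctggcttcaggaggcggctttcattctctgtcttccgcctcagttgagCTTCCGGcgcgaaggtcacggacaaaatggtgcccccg
A match is a description of the letters only. In the CD8 comparison of anti-PD-1 with isotype under CZA+DAV132, given next, the 6 genes with the first motif had a median log2 change of -1.05 (from -1.33 to -0.94) and the other 22 tested genes with a window one of -1.17 (from -1.60 to -0.79), and the 10 genes with an ETS match had -1.09, against -1.17 for 18 without.

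Under CZA+DAV132, the subunit genes of all 3 complexes were lower in sorted CD8 T cells with anti-PD-1 than with isotype. On the log2(TPM + 1) scale 33 of 37 fell (limma, adjusted p below 0.05 after Benjamini-Hochberg adjustment over 12942 genes): 8 of 8 of complex III, 11 of 14 of complex IV and 14 of 15 of complex V. None rose, and all 37 had a negative change. Over all genes tested 19.4% were called lower and 4.12% higher. The median change of the 37 genes was -1.10 (complex III -0.98, complex IV -1.20, complex V -1.05), where the median over all genes was -0.34. In 25 of the 37 every anti-PD-1 library lay below every isotype library, as did 12.1% of all genes.

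**Figure D1:**
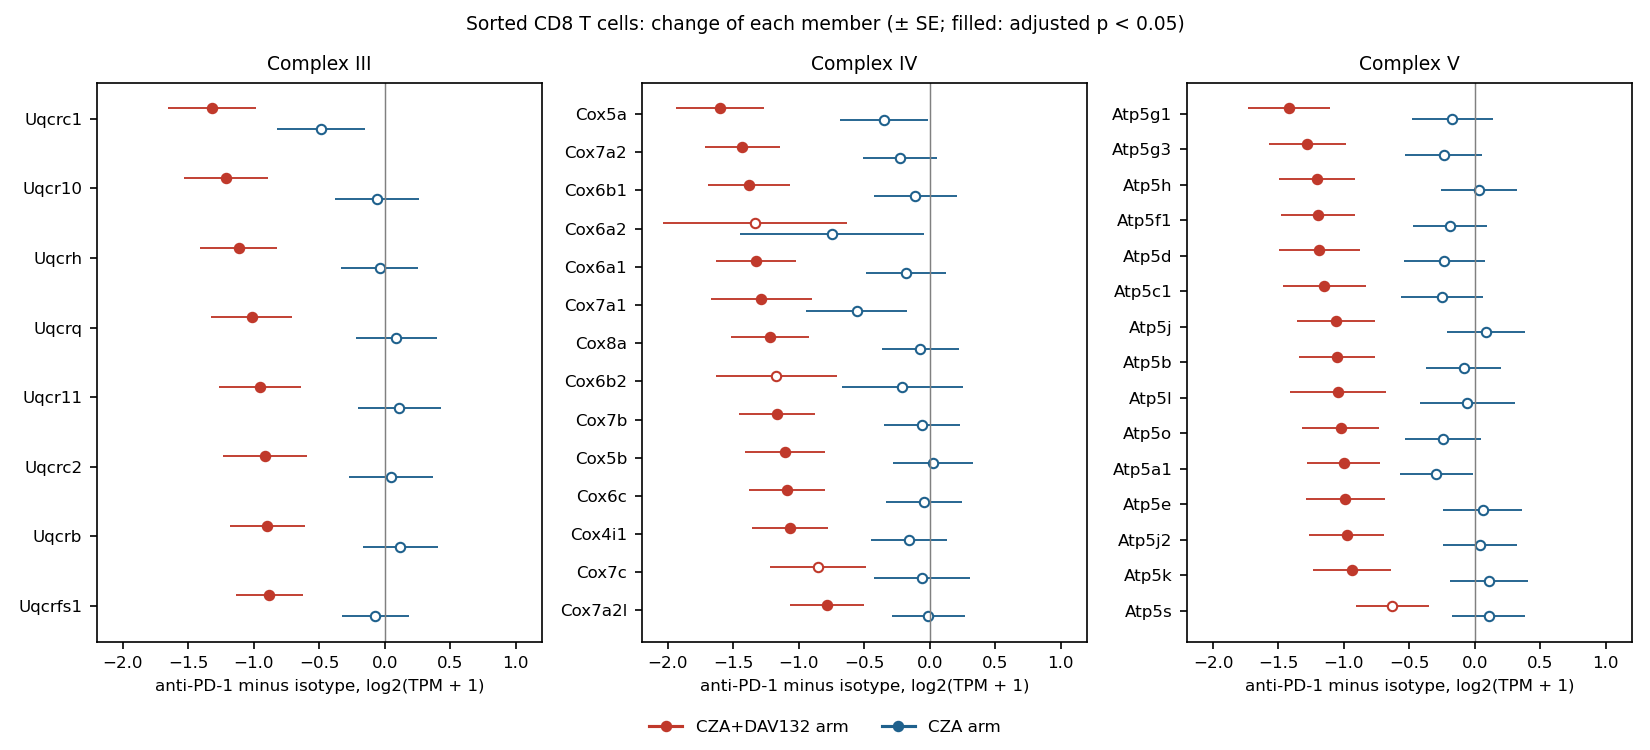
Change with anti-PD-1 against isotype in sorted CD8 T cells for each tested gene (log2(TPM + 1) scale, ± SE), in the CZA+DAV132 arm (red) and the CZA arm (blue); filled points passed an adjusted p of 0.05. All 37 red points lie left of 0 and 33 are filled, while the blue points lie around 0 with none filled.

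Complex III. Uqcrc1, a core protein that faces the matrix (chr9:108936633-108949623, plus strand, GRCm38), had 20.0, 50.7, 56.8, 20.6 and 62.5 TPM with anti-PD-1 under CZA+DAV132, against 88.0, 97.5, 92.8, 76.3 and 129.5 TPM with isotype. The highest anti-PD-1 library stayed below the lowest isotype library. Its log2 change was -1.32 ± 0.34 (SE, n = 5 and 5; limma, adjusted p = 0.0115). Uqcrh, the hinge protein that helps cytochrome c1 meet cytochrome c, had 418, 552, 579, 177 and 681 TPM, against 1032, 981.9, 892, 841 and 1016 TPM with isotype, again without overlap (log2 change -1.11 ± 0.29, limma adjusted p = 0.0125). Uqcrfs1, the Rieske iron-sulphur subunit that takes the electron from ubiquinol, averaged 62.2 ± 24.1 TPM with anti-PD-1 and 108 ± 12.6 TPM with isotype (SD, n = 5 each), the smallest fall of the complex (log2 change -0.88, limma adjusted p = 0.0191). Uqcrb, the most abundant of the 8 in this set with a median of 1238 TPM, fell by 0.90 on the log2 scale (limma, adjusted p = 0.029). Uqcrc2, the second core protein, was the least abundant (median 86.4 TPM), and its groups overlapped through library 20 at 108 TPM (log2 change -0.91, limma adjusted p = 0.0422). Uqcrc2 was called in 16 of 28 alternative analyses, and lost its call without any one of libraries 10, 11, 12, 13, 15, 16 and 19. Uqcrb was called in 19 of them (lost without 11, 12, 13, 15 or 16), Uqcrfs1 in 24 (lost without 15 or 16), and Uqcrc1 and Uqcrh in 27 each.

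Complex IV. Cox5a, which lies on the matrix side of the enzyme (chr9:57521274-57532426, plus strand), had 249, 456, 509, 169 and 566 TPM with anti-PD-1, against 1185, 1058, 1091, 714 and 1477 TPM with isotype. No library of one group reached the other. The change of -1.60 ± 0.34 on the log2 scale (SE, n = 5 and 5; limma, adjusted p = 0.00715) was the greatest of the 37. Cox7a2, the subunit 7a isoform of most tissues (chr9:79755361-79759878, minus strand), had 224, 403, 396, 139.9 and 513 TPM with anti-PD-1, against 877, 814, 854, 704 and 862 TPM with isotype. It also showed no overlap, and its p was the smallest (log2 change -1.43 ± 0.29, limma adjusted p = 0.00653). Cox6b1, which bridges the dimer, fell by 1.38 on the log2 scale, Cox6a1, the liver-type isoform of subunit 6a, by 1.33, and Cox8a, the ubiquitous subunit 8, by 1.22. Cox4i1, the subunit through which ATP is known to inhibit the enzyme, averaged 555 ± 230.2 TPM with anti-PD-1 and 1069.6 ± 155 TPM with isotype (SD, n = 5 each; log2 change -1.07, limma adjusted p = 0.0149).

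Cox7a2l, which joins complexes III and IV into supercomplexes and of which C57BL/6 mice carry a shortened allele, moved least among the genes called. It had 83.0, 129, 172, 46.1 and 183 TPM with anti-PD-1, against 192, 187, 188, 209 and 172 TPM with isotype, and the groups overlapped (log2 change -0.79 ± 0.28, limma adjusted p = 0.0454). It made up between 24.3% and 30.2% of the summed Cox7a2 and Cox7a2l TPM with anti-PD-1, against between 16.6% and 22.9% with isotype, so that the share of Cox7a2l was higher in each anti-PD-1 library. Cox7a2l shares 16.6% of its 31-base words with other entries, chiefly a processed pseudogene, and Cox7a2l was called in 7 of 28 alternative analyses, having lost its call without any one library other than 1, 17, 18 and 20. Cox7c (-0.85, adjusted p = 0.0914), Cox6b2 (-1.17, adjusted p = 0.0682) and Cox6a2 (-1.34, adjusted p = 0.174; all limma) did not pass. Cox6a2 and Cox7a1 are the heart and skeletal muscle isoforms and Cox6b2 the testis isoform. These stayed below 23 TPM in every CD8 library, with Cox6a2 at 0 in libraries 19 and 20.

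Complex V. Atp5g1, which encodes the c subunit of the membrane ring (chr11:96068852-96075670, minus strand), had 167, 380.1, 359, 129.7 and 506 TPM with anti-PD-1, against 787, 739, 798, 605 and 746 TPM with isotype. Each anti-PD-1 library was lower than each isotype library, and the log2 change was -1.42 ± 0.31 (SE, n = 5 and 5; limma, adjusted p = 0.00774). Atp5g3, a separate gene for the same mature protein, had 300.4, 469, 522, 169 and 585 TPM, against 958, 907, 941, 743 and 1026 TPM with isotype, with no overlap (-1.28 ± 0.29, limma adjusted p = 0.00845). The share of Atp5g1 in their sum lay between 35.7% and 46.4% with anti-PD-1 and between 42.1% and 45.9% with isotype, so the balance of the gene pair showed no separation. Of the catalytic head, the β subunit Atp5b averaged 379.7 ± 178 TPM with anti-PD-1 and 712 ± 56.1 TPM with isotype (SD, n = 5 each; log2 change -1.05, limma adjusted p = 0.015). The α subunit Atp5a1 fell as well (limma, adjusted p = 0.0166), to a mean of 105 TPM with anti-PD-1, against 191 TPM with isotype. Atp5e, the ε subunit of the stalk, was the most abundant of complex V (median 1678 TPM) and fell by 0.99. Atp5e lost its call without library 13, 15 or 16, and Atp5a1 without library 16. Atp5s, named for a coupling factor and no subunit of the enzyme's core, was the least abundant (median 5.95 TPM) and did not pass (-0.63, limma adjusted p = 0.102).

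**Figure D2:**
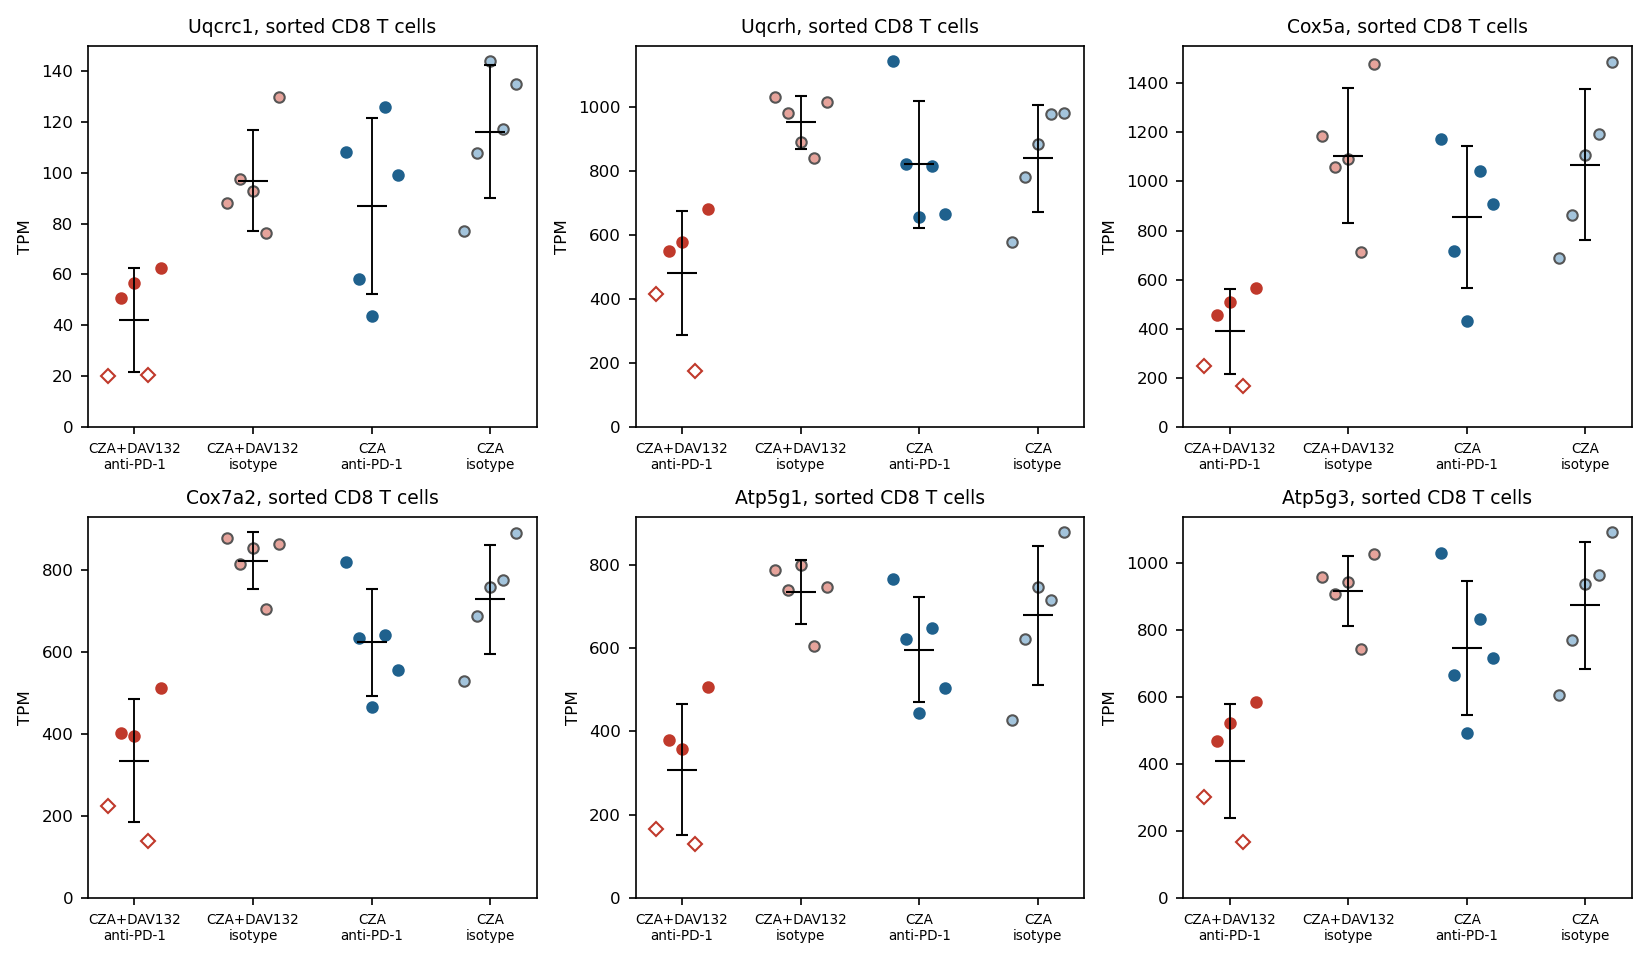
TPM of 6 genes in each library of sorted CD8 T cells by group; circles and diamonds are libraries (diamonds: libraries 16 and 19, rich in repeat entries), and bars are the mean ± SD (n = 5). In each panel the 5 libraries of CZA+DAV132 with anti-PD-1 lie below all 5 of CZA+DAV132 with isotype; the highest Cox5a value with anti-PD-1 is 566 TPM and the lowest with isotype 714 TPM.

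The median fall in TPM was smaller without the libraries rich in repeat entries. These entries took 69.3%, 29.1%, 18.5%, 15.1% and 12.0% of the TPM with anti-PD-1 under CZA+DAV132, against 2.35% to 8.55% with isotype, and up to 25.4% in CZA with isotype. The 38 genes took 0.561% to 2.24% of the TPM with anti-PD-1, against 2.48% to 3.20% with isotype. With the repeat entries set aside they took 1.60% to 2.54% of the rest, against 2.71% to 3.29%, and the groups still did not overlap. Without libraries 16 and 19 the median change was -0.59, where that of all genes was -0.01, and all 37 changes stayed negative. Then 12 genes were called in place of 33, with fewer anti-PD-1 libraries in the fit. The cause of the lower count was not tested. The share called over all genes in that setting is not given here. With TPM rescaled by median ratios the median was -0.62 over the 37 genes and -0.00 over all, and 31 were called. Under that scaling 1829 genes were called lower and 1478 higher over all genes, in place of 2509 and 533. The same scaling without libraries 16 and 19, added after seeing the data, gave 24 calls among the 37 genes. Atp5f1, Atp5g1, Atp5g3, Atp5h, Cox5a, Cox6a1, Cox6b1, Cox7a2 and Cox8a, 9 in all, were called in each of the 28 alternatives.

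**Figure D3:**
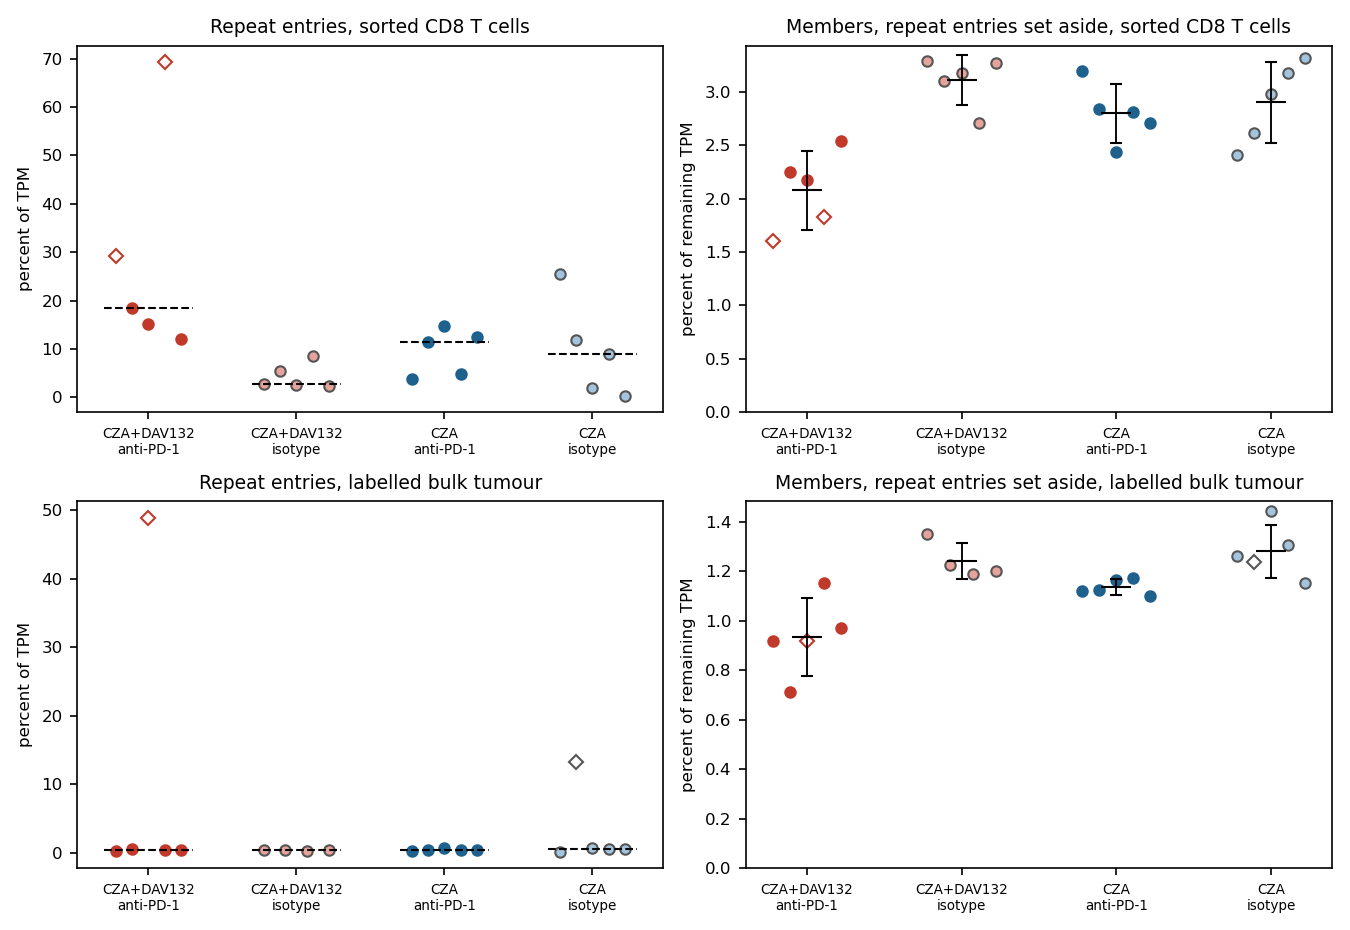
Left, share of the TPM taken by 11 satellite and simple repeat entries, with dashed lines at the group medians; right, share of the remaining TPM taken by the 38 genes, with bars at the mean ± SD (n = 5, or 4 for tumour-labelled CZA+DAV132 with isotype); diamonds are CD8 libraries 16 and 19 and tumour-labelled libraries T026 and T985. In CD8 cells of the CZA+DAV132 arm the genes took 1.60% to 2.54% of the rest with anti-PD-1 and 2.71% to 3.29% with isotype.

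Other measures moved with the same comparison. Ribosomal protein transcripts took 2.42% to 11.3% of the TPM with anti-PD-1, against 11.4% to 13.9% with isotype. Mitochondrially encoded transcripts took 1.35% to 16.5%, against 4.06% to 5.25%. Both shares are of all TPM, repeat entries included, and are not given with those entries set aside. The 8 T cell markers summed to a median of 9932 TPM with anti-PD-1 (3560.5 to 11756), against 10932 TPM (9714 to 13004). The 8 macrophage and monocyte markers summed to 116 TPM (46.6 to 214), against 432 TPM (58.6 to 555), and the 3 endothelial markers to 1099 TPM (431 to 2467), against 287 TPM (216 to 380.5), nearly all of it Pecam1, with Cdh5 at 0 in 12 of 20 libraries. The 5 erythroid markers summed to 344.0 TPM (111 to 841), against 158 TPM (113 to 551). The part of these markers in the result was not tested.

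The balance of the 3 complexes differed as well. Complex IV made up 37.0% to 38.8% of the summed TPM of the 38 genes with anti-PD-1 under CZA+DAV132, against 39.03% to 42.2% with isotype, a small shift without overlap. In the CZA arm it made up 37.2% to 40.2% with anti-PD-1, against 40.3% to 41.3% with isotype, also lower without overlap. In the tumour-labelled libraries the direction was opposite in both arms, again without overlap: 34.5% to 39.6% with anti-PD-1 and 29.2% to 33.9% with isotype under CZA+DAV132, and 33.3% to 37.0% with anti-PD-1 and 28.7% to 32.8% with isotype under CZA. In CD8 cells under CZA+DAV132 complex III made up 18.8% to 21.5%, against 18.1% to 19.2%, and complex V 40.6% to 42.9%, against 39.7% to 41.8%, both with overlap. These shares are taken within the 38 genes, so the repeat entries do not enter them.

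Genes that work with the complexes but are encoded or named elsewhere were set beside them, with all libraries only. Ndufa4, a subunit now counted with complex IV, fell by 1.69 on the log2 scale (limma, adjusted p = 0.0068), Cyc1, the cytochrome c1 of complex III, by 1.34 (adjusted p = 0.0102) and Cycs, cytochrome c itself, by 0.92 (adjusted p = 0.0304). In that list of partners 7 of 13 tested genes fell, and the 6 that did not are the mitochondrially encoded subunits, which had positive changes that did not pass, such as 0.35 ± 0.42 for mt-Co1, 0.43 ± 0.42 for mt-Cytb and 0.31 ± 0.41 for mt-Atp6 (SE; limma adjusted p = 0.576, 0.491 and 0.622). Of complex II 3 of 4 genes fell and of complex I 31 of 37 (medians -1.37 and -1.08), beside the median of -1.10 over complexes III to V. Of assembly factors 11 of 27 fell (median -0.79), and Coa7, a factor for complex IV, fell by 2.11 (limma, adjusted p = 0.00263). Of 11 tested regulators 1 fell. Tfam, which packages mitochondrial DNA and acts in its transcription, fell by 1.82 (limma, adjusted p = 0.00767, list median -0.31). No gene of these 5 lists rose.

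In the CZA arm no single gene of the 37 passed with anti-PD-1 in CD8 cells, where the share of complex IV among the 38 genes was lower without overlap, as given above. None of 37 was called in either direction, and none had an unadjusted p below 0.05 (limma), where over all genes 0% were called lower and 0.0155% higher. The median change was -0.07 over the genes and -0.02 over all. Cox5a had 1173, 719, 433, 1043 and 907 TPM with anti-PD-1, against 689.9, 862, 1106, 1194 and 1487 TPM with isotype, with wide overlap. The gene of smallest p in each complex was Uqcrc1 (-0.49 ± 0.34), Cox7a1 (-0.56 ± 0.39) and Atp5a1 (-0.29 ± 0.28; SE, n = 5 and 5, limma adjusted p = 0.997 for each). Without libraries 16 and 19, which lie outside this comparison, the count stayed at 0 and the median at -0.07. An adjusted p that misses the threshold does not show that the groups are alike.

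**Figure D4:**
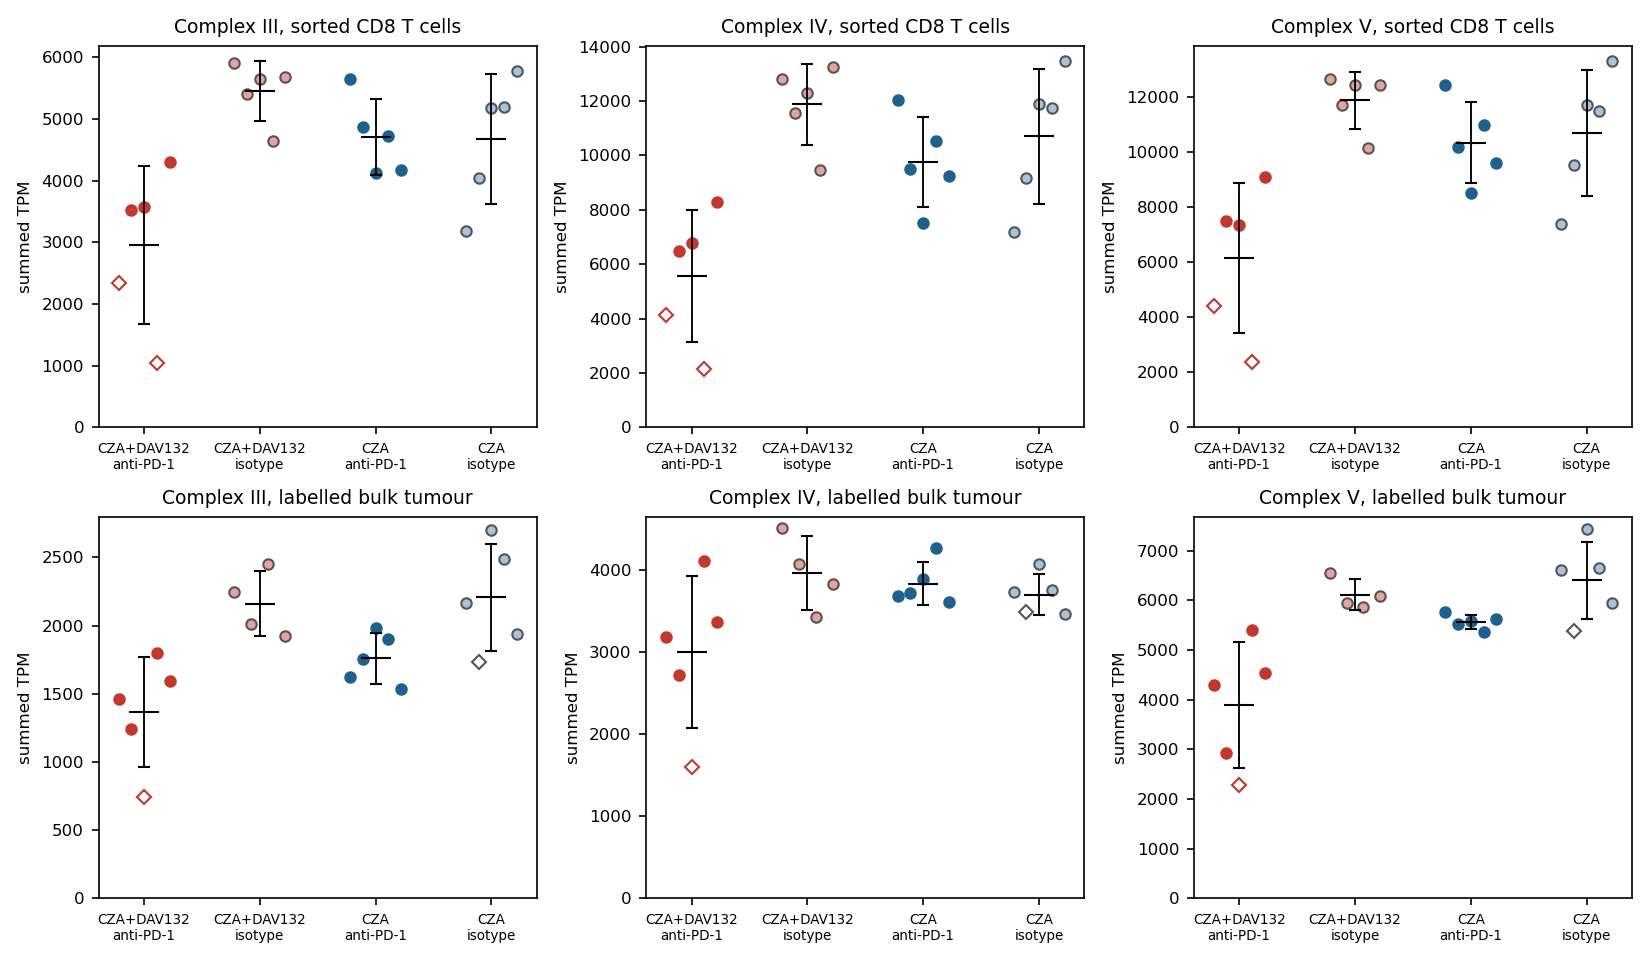
Summed TPM of complex III, IV and V genes in each library by group, sorted CD8 T cells above and tumour-labelled libraries below; bars are the mean ± SD (n = 5, or 4 for tumour-labelled CZA+DAV132 with isotype), and diamonds are the libraries richest in repeat entries. In CD8 cells complex V summed to 2357 to 9114 TPM in CZA+DAV132 with anti-PD-1 and to 10136 to 12663 TPM with isotype.

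Set against CZA under anti-PD-1, the CZA+DAV132 CD8 libraries were lower in all 37 genes, but no gene passed. With limma 0 of 37 were called, where over all genes 0.0386% were called lower and 0% higher. Before adjustment 33 of 37 had p below 0.05, but p-values this small were common over all genes. Atp5l, at an unadjusted p of 0.0455, had adjusted p = 0.142 (limma). The share of all genes with an unadjusted p below 0.05 is not given here. The median change was -0.85, against -0.40 over all genes. Cox6b1 had 524, 772, 877, 262 and 952 TPM with DAV132 and 1713, 1301, 951, 1558 and 1505 TPM without, which overlapped at libraries 20 and 8 alone (log2 change -1.16 ± 0.31, limma adjusted p = 0.0683). Uqcrc1 (-1.08 ± 0.34) and Atp5g1 (-1.10 ± 0.31) came next by complex, with adjusted p = 0.0693 and 0.0683. In 2 of 37 genes the groups did not overlap, against 2.58% of all genes. The count depended on single libraries: 31 genes were called without library 20, 23 without library 18 and 13 without library 8, and none without any other library. The share called over all genes without these libraries is not given here. With TPM rescaled by median ratios the median was -0.32 and no gene was called, and without libraries 16 and 19 it was -0.34, with 36 of 37 negative and 0 called.

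Under isotype no difference between the arms was detected. None of 37 genes was called or had an unadjusted p below 0.05 (limma; 0% called lower and 0% higher over all genes), and 34 of 37 changes were positive, with a median of 0.15 against -0.06 over all genes. Uqcrb (0.32 ± 0.29), Cox6b2 (0.60 ± 0.46) and Atp5k (0.37 ± 0.30) had the smallest p of their complexes (SE; limma, adjusted p = 1.00 for each). Without libraries 16 and 19, again outside the comparison, 0 were called and the median stayed at 0.15. The difference between the arms in the effect of anti-PD-1 was negative in all 37 genes (median -1.02, against -0.37 over all). None was called (limma, with 0% lower and 0% higher over all genes). Before adjustment 26 had p below 0.05 (limma), a count given without the share over all genes. The smallest p in each complex was that of Uqcrh (-1.08 ± 0.41), Cox7a2 (-1.20 ± 0.40) and Atp5h (-1.24 ± 0.41), each with adjusted p = 0.29. Without libraries 16 and 19 the median was -0.53 (0.00 over all genes), all 37 stayed negative and 0 were called, with 16 at an unadjusted p below 0.05. So the fall in the CZA+DAV132 arm is not shown to differ from the CZA arm after adjustment.

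In the tumour-labelled libraries the levels and their order were different. The 38 genes took 1.15% to 1.45% of the TPM outside repeat entries in CZA with isotype there, against 2.41% to 3.32% in CD8 cells of the same group, values from tables that may have been normalised separately. Among complex III genes Uqcrh was the most abundant (median 501 TPM) and Uqcrc1 the least (12.9 TPM), among complex IV genes Cox4i1 (722 TPM) led, with Cox7b (717 TPM) not beyond its spread, and among complex V genes Atp5b (1029 TPM). In CD8 cells the leaders were Uqcrb, Cox6c (1486 TPM) and Atp5e. Cox7a2l made up 40.6% to 69.5% of the summed Cox7a2 and Cox7a2l TPM in these libraries, against 16.2% to 30.2% in the CD8 set. The muscle isoform Cox7a1 was at 75.1 TPM in library T986 of CZA with isotype and at 0 in the other 4 libraries of that group. Cox6a2 and Cox6b2 were each at 0 in 12 of 19 libraries.

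With anti-PD-1 against isotype under CZA+DAV132, 35 of 38 genes had a negative change in the tumour-labelled libraries, and none passed. With limma 0 of 38 were called, where 0.21% of all genes were called lower and 0.03% higher. Before adjustment 16 had p below 0.05 (limma), a count given without the share over all genes. The median change was -0.51 over the genes and -0.15 over all. Uqcrq, a small subunit of complex III (log2 change -1.25 ± 0.27, adjusted p = 0.0603), Cox7a2 (-1.13 ± 0.29, adjusted p = 0.0891) and Atp5b (-1.25 ± 0.30, adjusted p = 0.0765; SE, n = 5 and 4, limma) had the smallest p by complex. Atp5b had 786, 326, 399.6, 883 and 737 TPM with anti-PD-1, against 1363, 1310.0, 1547 and 1317 TPM with isotype. Cox7a2 had 103, 58.6, 49.1, 113 and 92.6 TPM, against 156, 178, 225 and 150.2 TPM with isotype. Neither gene's groups overlapped, as was so for 8 of the 38 genes and for 4.43% of all genes. Ndufa4 was the 1 gene of the 5 neighbouring lists that passed there, and it was lower (-1.38, limma adjusted p = 0.0489). Without library T029 there were 4 genes called, Atp5b, Atp5c1, Cox7a2 and Uqcrq, a count given without the share over all genes. The 38 genes took 0.714% to 1.15% of the TPM outside repeat entries with anti-PD-1 and 1.19% to 1.35% with isotype. These ranges did not overlap, and library T026 stood at 0.920%. Without libraries T026 and T985 the median change was -0.37 (-0.04 over all genes), 30 of 38 were negative and 0 were called, with 14 at an unadjusted p below 0.05.

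Cell type markers moved with this comparison too. The 3 endothelial markers summed to 1756 to 5830 TPM with anti-PD-1, against 814 to 1429 TPM with isotype, without overlap. Nearly all of that was Pecam1, and Cdh5 was at 0 in 16 of 19 libraries. The 8 macrophage and monocyte markers had a median sum of 63.1 TPM (47.6 to 108), against 214 TPM (47.6 to 319), and the 5 erythroid markers one of 108 TPM (55.4 to 244), against 55.7 TPM (23.4 to 87.5). The T cell markers overlapped (4022 to 11958 TPM, against 6431 to 11114 TPM). The part of these markers in the result was not tested.

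In the CZA arm of the tumour-labelled libraries 2 of 38 genes passed, in opposite directions (4 had an unadjusted p below 0.05; 0.0075% of all genes were called lower and 0.278% higher). Uqcrc1 had 9.28, 10.9, 2.80, 5.54 and 12.9 TPM with anti-PD-1, against 56.5, 62.5, 55.1, 40.1 and 51.5 TPM with isotype. The groups lay far apart, and the isotype libraries of CZA were the only group of the set where each library exceeded 33.1 TPM. The log2 change was -2.67 ± 0.52 (SE, n = 5 and 5; limma, adjusted p = 0.0374), with a range of -2.87 to -2.38 over 27 alternatives, 18 of which called it. Under CZA+DAV132 the same gene had 9.38, 4.21, 8.79, 16.2 and 15.0 TPM with anti-PD-1, against 2.66, 33.1, 8.28 and 18.3 TPM with isotype (-0.18 ± 0.55, adjusted p = 0.961), and its difference of effects between arms was 2.49 ± 0.76 (limma, adjusted p = 0.3). Atp5s had 2.99, 4.55, 34.2, 13.5 and 5.70 TPM with anti-PD-1, against 0, 1.42, 0.286, 0 and 0 TPM with isotype. It was listed at 0 in 3 of the 5 isotype libraries, so the fitted change of 2.91 ± 0.57 (limma, adjusted p = 0.0382) depends on the value added before the log.

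**Figure D5:**
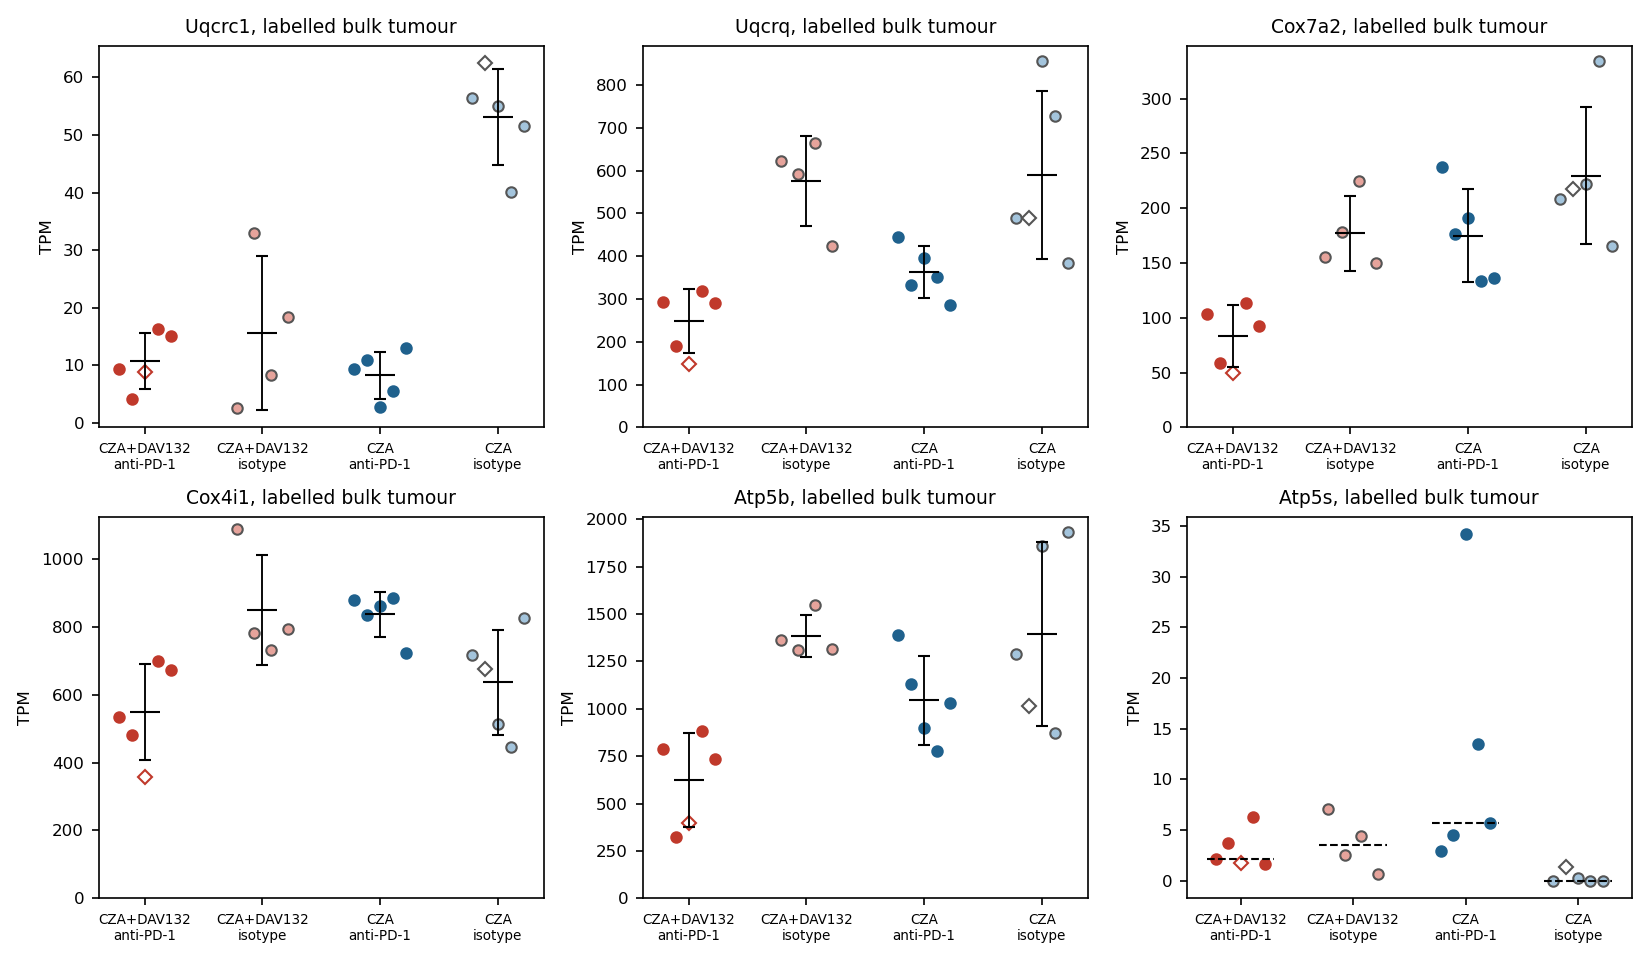
TPM of 6 genes in each tumour-labelled library by group; diamonds are libraries T026 and T985, bars are the mean ± SD (n = 5, or 4 for CZA+DAV132 with isotype), and the dashed lines in the Atp5s panel are medians. Uqcrc1 lies between 40.1 and 62.5 TPM in CZA with isotype and at or below 33.1 TPM in the other groups.

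Both calls depended on single libraries. Each lost its call without any one of the anti-PD-1 libraries T984, T988, T989 and T990 of the CZA arm, and without T021 or T030, which lie outside the comparison but share its estimate of the spread. Uqcrc1 lost it also without T982 and Atp5s also without the isotype library T987. Without these libraries the adjusted p (limma) of Uqcrc1 reached at most 0.0794 and that of Atp5s at most 0.0865. The 38 genes as a whole showed no common direction (20 of 38 negative, median -0.00, against 0.25 over all genes). Without libraries T026 and T985 the median was -0.08 (0.26 over all genes), with 23 negative and both calls in place. Among complex IV genes Cox4i1 had the smallest p (0.43 ± 0.22, limma adjusted p = 0.412). With TPM rescaled by median ratios 32 of 38 were negative, and Atp5g1 (-1.39, limma adjusted p = 0.0294) was called with Uqcrc1 in place of Atp5s. The 8 T cell markers summed to 8320 to 13202 TPM with anti-PD-1 in this arm, against 5950 to 7840 TPM with isotype, without overlap. The endothelial markers had a median sum of 1304 TPM (989.45 to 3217), against 882 TPM (563 to 1052), nearly all of it Pecam1. Cdh5 was at 0 in 16 libraries of the set. The macrophage and monocyte markers had a median sum of 118 TPM (38.7 to 208), against 254 TPM (113 to 605). The part of these markers in the calls was not tested.

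The remaining comparisons of the tumour-labelled libraries called no gene of the 3 complexes. CZA+DAV132 against CZA under anti-PD-1 gave 33 of 38 negative changes with a median of -0.42 (-0.19 over all genes). By limma 0 were called, where 0% of all genes were called lower and 0% higher. Before adjustment 14 had p below 0.05 (limma), a count given without the share over all genes. Uqcrh (-0.72 ± 0.23, adjusted p = 0.37), Cox7a2 (-1.10 ± 0.27, adjusted p = 0.274) and Atp5k (-0.94 ± 0.30, adjusted p = 0.372) had the smallest p by complex. Under median-ratio scaling the median moved to -0.12 with 23 of 38 negative, and the medians of complexes III and IV turned to 0.04 and 0.03. Without libraries T026 and T985 the median was -0.23, with 27 of 38 negative and 0 called. Under isotype 0 were called and 2 had an unadjusted p below 0.05 (0% of all genes lower, 0.113% higher), and Uqcrc1 had the smallest p (-2.13 ± 0.55, limma adjusted p = 0.126). For the difference of effects 0 were called (0.045% of all genes lower, 0% higher). There 9 had an unadjusted p below 0.05 (limma), again without the share over all genes. Without libraries T026 and T985 0 were called in both, with medians of 0.01 under isotype and -0.31 for the difference of effects, against 0.06 and -0.45 with them. The comparisons within a set share libraries, so a gene's values in one are not independent of those in another.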

How the data were processed

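Expression was deposited as TPM per gene symbol for 20 sorted CD8 libraries and 19 bulk-labelled ones, made from ribosome-depleted RNA with a stranded kit, per the labels' protocols. The authors' TPM values come from kallisto 0.45 and GRCm38, per the submitters' processing notes. The tables give no counts, so the depth is unknown and its effect on precision could not be given.

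Each table was fitted separately with limma 3.58.1 in R 4.3.3 on log2(TPM + 1), which understates changes of low genes, with a mean for each of 4 groups, moderation with a mean-variance trend and Benjamini-Hochberg adjustment over all genes that reached 1 TPM in 4 or more libraries (12942 and 13326). Calls are at an adjusted p below 0.05, two-sided, and the fit was tested on simulated data. Counts at an unadjusted p below 0.05 are given without the share over all genes. They are not to be set against the shares called. Alternatives changed the added value (0.1), the filter (none, or a mean of at least 5 TPM), the scaling (median ratios), the groups fitted, the library weights and the libraries. Gene positions are those of GENCODE on GRCm38, where 37 of the 38 genes had 1 entry, and sharing between genes was counted over words of 31 bases.

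Within each complex the text names the 2 genes of smallest p among those called, or the 1 of smallest p where none was, the highest and lowest by level, and a list of core subunits and tissue isoforms. The genes and lists were chosen with earlier results of these data known.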

Additional observations from a re-analysis of the deposited data

Results flagged for a closer look

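A library was picked out where its value lay apart from the rest of its group by Dixon's criterion at the 95% level. Of 216 groups of 4 or 5 libraries tested, 15 had such a library, and chance gives about 1 in 20.

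In the CD8 set, Atp5a1 stood at 153 TPM in library 11 of CZA+DAV132 with isotype, below the other 4 at 189.9 to 205 TPM. Cox6b2 stood at 13.0 TPM in library 12 of the same group, above 6.43 to 7.22 TPM. Cox7a2l stood at 203 TPM in library 6 of CZA with anti-PD-1, above 167 to 171 TPM.

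In the tumour-labelled set, repeat entries took 48.9% of the TPM in library T026 of CZA+DAV132 with anti-PD-1, against 0.281% to 0.56% in the others of the group, and 13.3% in T985 of CZA with isotype, against 0.188% to 0.662%. In CZA+DAV132 with isotype, Atp5a1 was high in T028 at 364 TPM (others 217 to 239 TPM), Atp5g1 was low in the same library at 95.1 TPM (others 183 to 193 TPM), and Cox6b1 was low in T027 at 219.8 TPM (others 295 to 302 TPM).

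Isoforms of muscle and testis and Atp5s gave the remaining cases, each in a group otherwise at or near 0. Cox6a2 was at 1.23 TPM in T030, 4.82 TPM in T024 and 13.3 TPM in T991, and Cox6b2 at 3.04 TPM in T984 and 2.84 TPM in T985. Cox7a1 was at 75.1 TPM in T986, and Atp5s at 1.42 TPM in T985.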

How the results depend on the processing

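For anti-PD-1 against isotype under CZA+DAV132 in CD8 cells, 12 genes were called when only those groups were fitted and 12 without libraries 16 and 19, in place of 33, and between 24 and 35 without 1 library each. With low genes kept in, 28 were called. The counts in this paragraph are of the genes described here alone, without the share called over all genes. For CZA+DAV132 against CZA under anti-PD-1 in CD8 cells, 19 were called among genes with a mean of at least 5 TPM and 9 with array weights, in place of 0, and between 0 and 31 without 1 library each. In the tumour-labelled libraries, anti-PD-1 under CZA+DAV132 gave 1 call among genes with a mean of at least 5 TPM, 5 with array weights and between 0 and 4 without 1 library each, in place of 0. Anti-PD-1 under CZA gave 0 without a filter, 1 among genes with a mean of at least 5 TPM, 1 when only those groups were fitted, 0 with array weights and between 0 and 2 without 1 library each, in place of 2. The filter at 5 TPM left Atp5s untested there, at a mean of 4.90 TPM, and Uqcrc1 stayed called. The cause of the other changes was not tested. Of the values of single named genes under alternatives, 757 kept their direction and side of the threshold, 22 newly passed and 55 no longer passed. Median-ratio scaling joined with leaving out the repeat-rich libraries was added after seeing the data and gave 24 calls in the first comparison. No paired analysis was possible because the groups share no replicate numbers.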
